A study of Mus musculus with 9 samples.

Results

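Cells of the mouse tumour line Lewis lung carcinoma (LLC) were compared after culture in medium from stressed and from unstressed M-BMDM, 1 of the 2 kinds of bone-marrow-derived macrophage (BMDM) in the study. The comparison was of the library from cells in stressed M medium with the library from cells in unstressed M medium, 2 of 9 libraries, over the 11190 genes of 21936 listed that had a mean of at least 1 CPM (reads scaled to a library size that TMM makes common) across the 5 LLC libraries. The macrophages that made stressed medium had received tunicamycin, an inhibitor of N-linked glycosylation that disturbs protein folding in the endoplasmic reticulum (ER), for 12 h, whereas those of unstressed medium had received none. They were then washed and given fresh serum-containing medium, which was collected after 16 h and placed on LLC cells for 24 h. In the design tunicamycin was given to the macrophages and not to the LLC cells. The other LLC groups were stressed GM medium and unstressed GM medium, made in the same way with GM-BMDM, and untreated cells, whose feeding is not stated in the labels. All cells were of strain C57BL. The macrophage groups used below were M-BMDM given tunicamycin for 4 h and untreated M-BMDM. Each group held 1 library, so that no difference has a replicate check and no p-value is given.

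Folding stress in the ER is sensed by 3 membrane proteins. IRE1 and ATF6 lead to higher levels of chaperones, disulfide isomerases and the machinery that removes misfolded proteins, and PERK phosphorylates eIF2alpha, which lowers general translation while allowing ATF4 to be made. ATF4 and its partner CHOP raise the genes of the integrated stress response, among them other transcription factors, enzymes of amino acid supply and the phosphatase subunit that ends the response. The comparison addresses whether such a program appears in tumour cells given the medium of stressed macrophages. Whether any tunicamycin remained in that medium after the wash was not tested.

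The library with stressed M medium held 17128471 assigned reads and that with unstressed M medium 15291644, and the other 3 LLC libraries held 15020068 to 16027498. Mitochondrial genes took 2.20% to 2.37% of the reads in the 5 libraries, and the 10 most abundant genes 5.4% to 6.1%. Folds below are ratios of CPM, with 95% exact Clopper-Pearson intervals. These cover counting error alone, since 1 library per group measures no variation between cultures or libraries. Reads without molecular identifiers are not independent, so the intervals may be too narrow even for counting error. A log2 difference is log2(CPM + 1) with stressed medium minus that with unstressed medium. Carry-over of macrophages was followed with 18 macrophage markers, of which 11 had no read with stressed M medium and 12 with unstressed M medium. Their summed level was 20.5 CPM with stressed M medium and 19.0 CPM with unstressed M medium, against 15.1 to 27.0 CPM in the other 3 LLC libraries. Ptprc, which encodes CD45, and Adgre1, which encodes F4/80, had no read in any of the 5, and most of the sum was Cd14. The epithelial keratin gene Krt8 had 432 CPM with stressed and 485 CPM with unstressed M medium, while the adhesion genes Epcam and Cdh1 had no read in either library. The summed level of 9 fibroblast markers was 1054 CPM with stressed and 1588 CPM with unstressed M medium, most of it Col3a1. In bulk RNA, fewer cells of a type and less RNA per cell cannot be told apart.

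With stressed M medium 46 genes were at least 2-fold higher (0.411% of the genes compared) and 16 were lower by that fold (0.143%), where 2-fold is a log2(CPM + 1) difference of 1. At 1.5-fold, 217 genes were higher (1.94%) and 312 lower (2.79%). The 2 directions lay at different levels. Levels here are means of the 2 M libraries, which are also the libraries compared, so level and difference are not independent. Of the 46 higher genes, 17 had a mean under 5 CPM, 19 lay from 5 to 20 CPM, 9 from 20 to 100 CPM, and 1, Hspa5, above 100 CPM. Of the 16 lower genes, 15 had a mean under 5 CPM and 1, Tle2, lay from 20 to 100 CPM. The median difference over all genes was -0.12 under 5 CPM, -0.09 from 5 to 20 CPM, 0.01 from 20 to 100 CPM and 0.04 above 100 CPM, so that the low genes as a body lay slightly below 0. At the edge of the 2-fold rule, Ptpn22 (1.004) was the last gene inside and the ER chaperone Hyou1 (0.98) the first outside on the higher side. On the lower side Vamp5 (-1.002) was the last inside and H2-DMa (-0.97) the first outside.

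**Figure D1:**
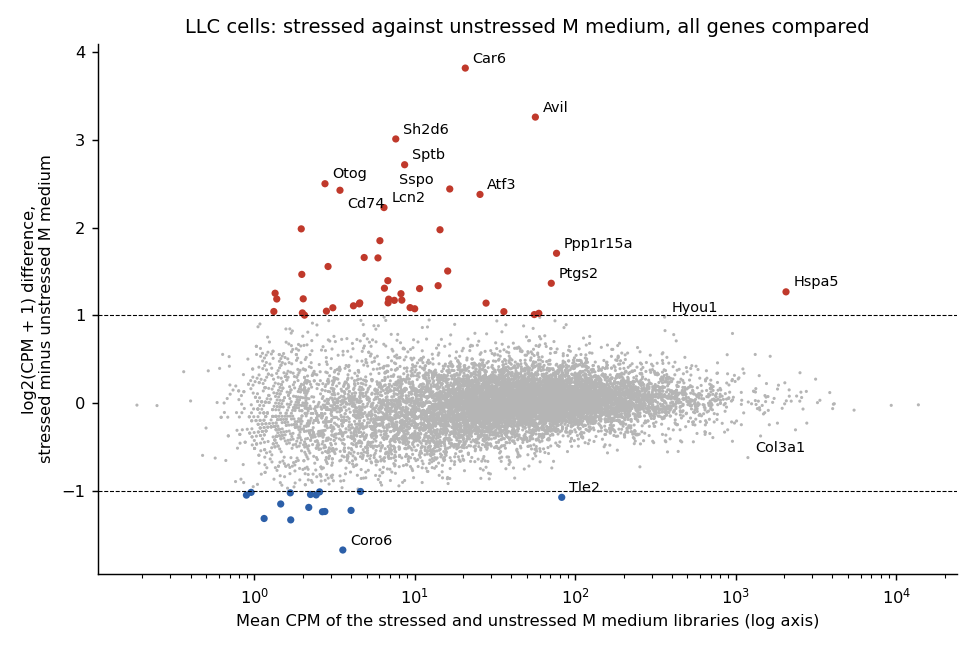
Log2(CPM + 1) difference, stressed minus unstressed M medium (vertical), against the mean CPM of both libraries (horizontal, log axis); 1 point is 1 of 11190 genes, and dashed lines mark a log2 difference of 1 and -1. The 46 genes at least 2-fold higher (red) reach up to Car6 at 3.81, and the 16 at least 2-fold lower (blue) sit at low levels apart from Tle2.

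Car6, Avil and Sh2d6 had the largest differences. Car6, a secreted carbonic anhydrase of saliva of which a form is known to be induced downstream of CHOP in stressed mouse cells (chr4:150187015-150201332 in GRCm38), had 39.4 CPM with stressed and 1.87 CPM with unstressed M medium. It had 36.3 CPM with stressed and 1.56 CPM with unstressed GM medium, and 0.527 CPM in untreated cells. The level was thus high in both stressed media and low in the other 3 libraries, and the stressed M library was 21.1-fold higher (14.5 to 31.7) than the unstressed M library. Avil encodes advillin, an actin-regulating protein of the villin family (chr10:127000709-127020994), and had 103 CPM with stressed and 9.87 CPM with unstressed M medium. It had 96.7 CPM with stressed and 4.61 CPM with unstressed GM medium, and 9.75 CPM in untreated cells. Avil was 10.4-fold higher (8.83 to 12.4) with stressed M medium, and the 3 libraries without stressed medium did not reach 10 CPM. Avil overlaps Tsfm on the opposite strand, which had 47.9 CPM with stressed and 42.9 CPM with unstressed M medium, and no source used here says whether counting used strand.

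Sh2d6, which encodes an SH2-domain protein, had 14.3 CPM with stressed and 0.903 CPM with unstressed M medium. In the remaining libraries it had 12.8 CPM with stressed and 0.715 CPM with unstressed GM medium, and 0.527 CPM in untreated cells. It followed the pattern of Car6, at 15.8-fold (9.26 to 29.4) with stressed over unstressed M medium. Otog, the inner-ear matrix protein otogelin, had 5.38 CPM with stressed and 0.129 CPM with unstressed M medium, and the ratio of 41.7-fold (11.2 to 349.6) rests on 2 reads in the unstressed library. Sspo, the large secreted glycoprotein SCO-spondin, had 28.6 CPM with stressed and 4.45 CPM with unstressed M medium, a fold of 6.42-fold (4.98 to 8.38). Cdsn, the skin adhesion protein corneodesmosin, had 23.5 CPM with stressed and 5.23 CPM with unstressed M medium, or 4.49-fold (3.53 to 5.78). For these 3 genes the stressed GM library was high as well, at 6.05, 29.6 and 18.6 CPM for Otog, Sspo and Cdsn, and the untreated library low, at 0.264, 2.04 and 3.69 CPM.

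Sptb, the beta-spectrin of the red cell membrane skeleton, differed from these in its low point. It had 15.7 CPM with stressed and 1.55 CPM with unstressed M medium, a fold of 10.2-fold (6.68 to 16.1). It had 12.0 CPM with stressed and 3.18 CPM with unstressed GM medium, and 10.1 CPM in untreated cells. Untreated cells thus stood near the stressed libraries, and the unstressed M library was the lowest of the 5. Sptb overlaps Plekhg3 on the opposite strand, with 162 CPM with stressed and 186 CPM with unstressed M medium.

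Lcn2, a secreted lipocalin that binds iron carriers of bacteria, had 11.2 CPM with stressed and 1.61 CPM with unstressed M medium, or 6.97-fold (4.58 to 11.0). Its level of 25.4 CPM with stressed GM medium was above that with stressed M medium. Atp2a3, the calcium pump SERCA3 of the ER membrane, had 10.1 CPM with stressed and 2.06 CPM with unstressed M medium, or 4.87-fold (3.32 to 7.35). Areg, the EGF receptor ligand amphiregulin, had 7.87 CPM with stressed and 1.81 CPM with unstressed M medium, or 4.35-fold (2.88 to 6.80). Mfsd2a, a transporter of lysophosphatidylcholine, was 4.07-fold higher (2.82 to 6.02), and Grem1, a secreted BMP antagonist, was 3.07-fold higher (2.505 to 3.79). For these 5 genes the stressed library was above the unstressed one in the GM pair too, with log2 differences from 1.26 for Mfsd2a to 3.29 for Lcn2.

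Cd74, the invariant chain that escorts MHC class II proteins, had 6.45 CPM with stressed and 0.387 CPM with unstressed M medium. It had 10.5 CPM with stressed and 1.56 CPM with unstressed GM medium, and 0.725 CPM in untreated cells. The fold of 16.7-fold (7.41 to 46.4) rests on 6 reads in the unstressed M library. Its partners were near 0, since H2-Aa had no read in either M library, H2-Ab1 had 0.237 CPM with stressed and 0.516 CPM with unstressed M medium, and the class II regulator Ciita had 0.118 CPM with stressed and 1.16 CPM with unstressed M medium. The summed level of the 9 dendritic cell and class II markers, Cd74 included, was 22.1 CPM with stressed and 21.7 CPM with unstressed M medium. Only 3 of the 9 passed the filter, of which Cd74 lay above 0 and 2 lay below. These 2 were Zbtb46, at 10.5 CPM with stressed and 12.8 CPM with unstressed M medium, and Ccr7, at 3.43 and 5.74 CPM.

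**Figure D2:**
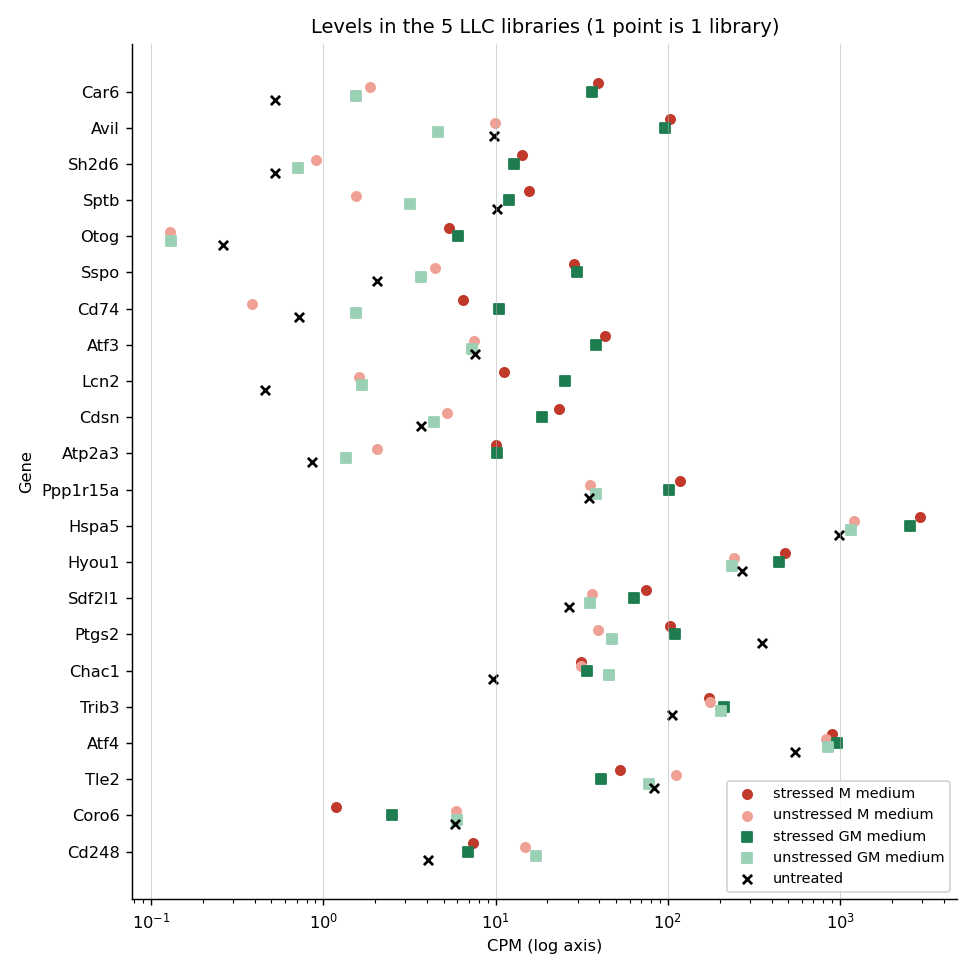
CPM on a log axis (horizontal) of 22 named genes (vertical) in the 5 LLC libraries, with stressed M medium, unstressed M medium, stressed GM medium, unstressed GM medium and untreated cells from top to bottom in each row; 1 point is 1 library. Car6, Avil, Sh2d6 and Atf3 stand high in both stressed libraries and low in the other 3, Ptgs2 is highest in untreated cells, and Chac1 and Trib3 hardly differ between stressed and unstressed M medium.

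ER chaperones were the list with the highest median of the 41 gene lists. Of 14 members compared, 12 lay above 0 and 2 were at least 2-fold higher, with a median log2 difference of 0.56. Over all genes compared, 5559 of 11190 (49.7%) lay above 0 and the median was -0.00, which stands beside each list below. Hspa5, the ER chaperone BiP that holds the stress sensors inactive, had 2907 CPM with stressed and 1206 CPM with unstressed M medium. It had 2555 CPM with stressed and 1158 CPM with unstressed GM medium, and 985 CPM in untreated cells. It was 2.41-fold higher (2.37 to 2.45) with stressed M medium, and both stressed libraries stood above the other 3. Sdf2l1, a partner of BiP in the ER lumen, had 74.6 CPM with stressed and 36.5 CPM with unstressed M medium, or 2.04-fold (1.85 to 2.26).

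The remaining ER chaperones were higher by smaller folds. Hyou1, which exchanges the nucleotide of BiP, had 479 CPM with stressed and 242 CPM with unstressed M medium, or 1.98-fold (1.90 to 2.06). Creld2, an ER-resident protein raised by folding stress, had 70.6 CPM with stressed and 38.6 CPM with unstressed M medium, or 1.83-fold (1.66 to 2.02). Hsp90b1, the ER form of HSP90, had a log2 difference of 0.80, Manf, an ER-resident secreted protein, of 0.76, the BiP co-chaperones Dnajc3 of 0.56 and Dnajb11 of 0.52, and the lectin chaperones Calr of 0.55 and Canx of 0.34. The 2 members below 0 were the BiP-binding proteins Dnajc10 (-0.04) and Sil1 (-0.24). Each of the 6 members at 1.5-fold or more also had a positive difference between stressed and unstressed GM medium, from 0.49 for Manf to 1.14 for Hspa5.

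Other parts of the ER machinery were higher by less. Of 13 disulfide isomerases and oxidases, 11 lay above 0 and none reached 1.5-fold, with a median of 0.25. Pdia4 had 485 CPM with stressed and 350.5 CPM with unstressed M medium and Pdia6 had 2816 CPM with stressed and 2211 CPM with unstressed M medium. Of 18 genes of ER-associated degradation, 15 lay above 0 with a median of 0.10, and 2 reached 1.5-fold. These were Selenos, at 1.54-fold (1.37 to 1.74), and Herpud1, a scaffold of the degradation complex, which had 112 CPM with stressed and 74.1 CPM with unstressed M medium. Of 35 genes of protein translocation and ER-to-Golgi transport, 30 lay above 0 (median 0.15), led by the translocation channel subunit Sec61a1 at 1.53-fold (1.45 to 1.62). Of 28 N-glycosylation genes 23 lay above 0 (median 0.13), with none at 1.5-fold. Among 12 sensors and their factors, 8 lay above 0 (median 0.05), with Atf6 at 1.38-fold (1.32 to 1.44), Xbp1, the transcription factor that IRE1 splices, at 1.32-fold (1.25 to 1.40), and the PERK gene Eif2ak3, counted with the regulators below, at 85.3 CPM with stressed and 84.8 CPM with unstressed M medium. Gene-level counts do not show the splicing of Xbp1.

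Promoters are shown for the BiP and Creld2 genes because both were higher and both hold the ER stress response element (ERSE), to which ATF6 and NF-Y are known to bind in ER chaperone genes. The sequences are those of RefSeq on GRCm38.p6, from 250 bases before to 50 after the start, and capitals mark the fixed letters of the ERSE, which is CCAAT, 9 bases of any kind and CCACG, on either strand. The element lies 65 to 47 bases before the start in Hspa5 (chr2:34771840-34772139, plus strand) and 126 to 108 bases before it, on the opposite strand, in Creld2 (chr15:88819396-88819695, plus strand).
Hspa5: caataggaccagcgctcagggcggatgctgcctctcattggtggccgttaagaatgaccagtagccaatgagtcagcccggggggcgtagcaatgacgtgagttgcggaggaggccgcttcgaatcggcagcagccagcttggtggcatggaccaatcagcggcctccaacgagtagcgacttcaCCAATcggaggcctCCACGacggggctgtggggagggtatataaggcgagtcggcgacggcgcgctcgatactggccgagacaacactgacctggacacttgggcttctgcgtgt
Creld2: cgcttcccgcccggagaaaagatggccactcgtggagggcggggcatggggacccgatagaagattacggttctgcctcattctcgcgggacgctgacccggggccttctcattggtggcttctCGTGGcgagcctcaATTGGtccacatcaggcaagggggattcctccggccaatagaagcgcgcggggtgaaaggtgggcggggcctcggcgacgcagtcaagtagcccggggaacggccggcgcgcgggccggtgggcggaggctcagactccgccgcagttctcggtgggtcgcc

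The ERSE was found in 6 of the 10 ER chaperones with a promoter in the RefSeq table (60%), against 39 of all 32851 promoters (0.119%). The 6 were Hspa5, Hsp90b1, Dnajc3, Creld2, Calr and Canx. Since the element is known from ER chaperone genes, this contrast is no separate result. Of the 8999 genes compared whose symbol matched a promoter, 15 held an ERSE. Their median log2 difference was 0.34, with 14 of 15 above 0 and 1, Hspa5, at least 2-fold higher. The 6 ER chaperones, Pdia6 and Syvn1 are among these 15, so their differences are already counted in the lists above. The shorter ERSE-II was found in 8 genes compared, Dnajb11 and Herpud1 among them, and all 8 lay above 0 with a median of 0.24. The UPRE core TGACGTGG, a known binding sequence of XBP1 and ATF6, was found in 90 genes compared, with a median of 0.07 and 54 above 0, and in 0.676% of all promoters in the table. The motifs were searched on both strands, and a match is a match of letters and not a measured binding site. Sdf2l1 had a promoter in the table and none of the 4 motifs searched.

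The regulators of the integrated stress response did not differ as 1 body. Of 20 compared, 15 lay above 0 and 3 were at least 2-fold higher, with a median of 0.18. Atf3, a transcription factor induced by ATF4 and by many other stresses, had 43.4 CPM with stressed and 7.55 CPM with unstressed M medium. It had 38.3 CPM with stressed and 7.34 CPM with unstressed GM medium, and 7.57 CPM in untreated cells. It was 5.75-fold higher (4.73 to 7.05) with stressed M medium, and the 3 libraries without stressed medium lay between 7.34 and 7.57 CPM. Ppp1r15a, or GADD34, the phosphatase subunit that removes the eIF2alpha phosphate, had 118 CPM with stressed and 35.3 CPM with unstressed M medium. It had 102 CPM with stressed and 38.5 CPM with unstressed GM medium, and 34.8 CPM in untreated cells. At 3.33-fold (3.03 to 3.67), it too was high in the 2 stressed libraries and nearly level in the other 3. Its opposite-strand neighbour Tulp2 was under 1 CPM in both M libraries.

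Gadd45a, a stress gene of growth arrest, had 48.7 CPM with stressed and 23.1 CPM with unstressed M medium. It had 59.3 CPM with stressed and 40.2 CPM with unstressed GM medium, and 50.5 CPM in untreated cells. The fold of 2.11-fold (1.86 to 2.39) set 1 library against the lowest of the 5, since untreated cells stood at the level of stressed M medium. The secreted factors Fgf21 and Gdf15 were higher by less than 2-fold on the log2(CPM + 1) scale. Fgf21 had 8.87 CPM with stressed and 4.00 CPM with unstressed M medium. It had 12.2 CPM with stressed and 8.64 CPM with unstressed GM medium, and 3.89 CPM in untreated cells. Unstressed GM medium thus stood near stressed M medium for Fgf21. Gdf15 had 21.4 CPM with stressed and 12.1 CPM with unstressed M medium. Ddit3, which encodes CHOP, had 46.5 CPM with stressed and 32.5 CPM with unstressed M medium, or 1.43-fold (1.28 to 1.60). It overlaps the tRNA synthetase gene Mars1 on the opposite strand, at 197 CPM with stressed and 235 CPM with unstressed M medium.

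Several central members hardly differed. Atf4 had 894 CPM with stressed and 828 CPM with unstressed M medium, a fold of 1.08-fold (1.05 to 1.11). Chac1, a glutathione-degrading enzyme that ATF4 and CHOP raise, had 31.2 CPM with stressed and 31.2 CPM with unstressed M medium, a fold of 1.0002-fold (0.882 to 1.13). Trib3, a pseudokinase that restrains ATF4, had 174 CPM with stressed and 175 CPM with unstressed M medium, a fold of 0.990-fold (0.940 to 1.04). Asns, asparagine synthetase, had 407 CPM with stressed and 442 CPM with unstressed M medium, and was 1.09-fold lower (1.05 to 1.12). For Chac1, Trib3 and Atf4 all 4 media libraries lay above the untreated one, at 9.62, 106 and 549.7 CPM in untreated cells. At the low end of the list Cebpb, a transcription factor of inflammation and stress, had 10.2 CPM with stressed and 14.8 CPM with unstressed M medium, and Atf5 had 51.5 CPM with stressed and 67.4 CPM with unstressed M medium.

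Promoters are shown for 4 genes that hold the ATF4 composite element TGATGNAA, 2 that were at least 2-fold higher and 2 that hardly differed, with the fixed letters of the element in capitals. It lies 110 to 103 bases before the start in Atf3 (chr1:191183284-191183583, minus strand), 17 to 10 before it in Avil (chr10:127000459-127000758, plus strand), 193 to 186 before it in Chac1 (chr2:119350992-119351291, plus strand) and 15 to 22 after it in Trib3 (chr2:152344011-152344310, minus strand).
Atf3: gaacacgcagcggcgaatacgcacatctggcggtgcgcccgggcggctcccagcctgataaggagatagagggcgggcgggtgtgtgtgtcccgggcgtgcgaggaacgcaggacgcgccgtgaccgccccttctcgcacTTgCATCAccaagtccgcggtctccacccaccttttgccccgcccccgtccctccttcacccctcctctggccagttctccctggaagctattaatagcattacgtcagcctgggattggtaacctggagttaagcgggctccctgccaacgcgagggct
Avil: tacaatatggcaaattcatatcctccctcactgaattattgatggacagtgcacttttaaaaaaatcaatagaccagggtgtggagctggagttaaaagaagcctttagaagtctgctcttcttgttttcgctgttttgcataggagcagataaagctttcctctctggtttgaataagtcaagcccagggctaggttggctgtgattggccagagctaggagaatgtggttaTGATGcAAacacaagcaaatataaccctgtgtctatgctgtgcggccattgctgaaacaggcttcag
Chac1: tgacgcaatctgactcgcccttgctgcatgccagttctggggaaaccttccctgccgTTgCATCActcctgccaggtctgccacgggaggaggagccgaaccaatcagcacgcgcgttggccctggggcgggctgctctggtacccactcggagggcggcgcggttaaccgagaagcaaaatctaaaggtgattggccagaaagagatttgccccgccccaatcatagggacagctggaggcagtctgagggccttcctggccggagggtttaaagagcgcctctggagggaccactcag
Trib3: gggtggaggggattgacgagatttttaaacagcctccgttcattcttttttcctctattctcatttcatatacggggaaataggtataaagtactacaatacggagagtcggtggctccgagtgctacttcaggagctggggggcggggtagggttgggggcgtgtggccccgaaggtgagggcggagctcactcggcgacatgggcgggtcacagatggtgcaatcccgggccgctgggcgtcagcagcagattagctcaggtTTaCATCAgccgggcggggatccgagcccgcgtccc

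The element was present in 5 of 18 regulators of the integrated stress response with a promoter in the table (27.8%), against 1304 of 32851 promoters (3.97%). The 5 were Atf3, Trib3, Chac1, Nupr1 and Fgf21, with a median log2 difference of 0.00. Since ATF4 is known to raise genes of this response, this contrast is no separate result. Among the 8999 genes compared whose symbol matched a promoter, 233 held the element (2.59%). Their median was -0.01, with 110 above 0 and 3 at least 2-fold higher, namely Avil, Atf3 and Inhbe. Thus the letters TGATGNAA were shared by genes that differed by up to 10.4-fold and by genes that hardly differed.

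M-BMDM themselves showed another balance after 4 h of tunicamycin, in a table scaled separately, so that differences and not levels are set side by side. Of 11049 genes compared there, M-BMDM with tunicamycin were at least 2-fold higher for 130 (1.18%) and lower by that rule for 32 (0.29%). Chac1 was 92.1-fold (59.5 to 151) and Trib3 54.9-fold (41.8 to 73.7) higher in these macrophages, and Ddit3 11.4-fold (10.5 to 12.4). In LLC cells with stressed M medium Chac1 and Trib3 hardly differed, and Ddit3 was at 1.43-fold (1.28 to 1.60). Hspa5, in contrast, was 2.13-fold (2.11 to 2.16) higher in M-BMDM with tunicamycin, near its 2.41-fold (2.37 to 2.45) in LLC cells. Of the 18 regulators of the integrated stress response in both tables, 14 were at least 2-fold higher in M-BMDM with tunicamycin and 3 in LLC cells with stressed M medium. Of the 14 ER chaperones, 3 were at least 2-fold higher in M-BMDM with tunicamycin and 2 in LLC cells. Over the 9689 genes in both comparisons the log2 differences were related by a Pearson r of 0.14, with a Spearman rho of 0.11. This describes genes, which are not independent replicates, in cells of 2 types and with 2 kinds of exposure and time.

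**Figure D3:**
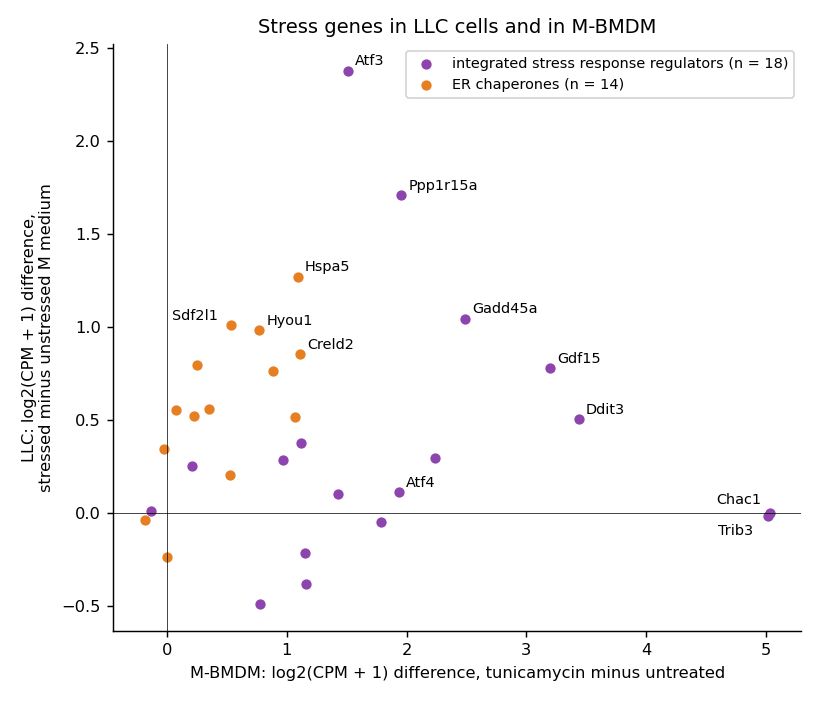
Log2(CPM + 1) difference in LLC cells, stressed minus unstressed M medium (vertical), against that in M-BMDM, tunicamycin minus untreated (horizontal), for 18 regulators of the integrated stress response (purple) and 14 ER chaperones (orange); 1 point is 1 gene. Chac1 and Trib3 lie near 5 in M-BMDM and near 0 in LLC cells, while Atf3, Ppp1r15a and Hspa5 are above 1 in both.

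Amino acid supply followed in part. Of 13 amino acid transporters 11 lay above 0 (median 0.26). Slc7a11, the cystine importer, had 42.9 CPM with stressed and 21.9 CPM with unstressed M medium, or 1.96-fold (1.72 to 2.23), and the arginine importer Slc7a1 had 415 CPM with stressed and 281 CPM with unstressed M medium. The leucine importer Slc7a5 went the other way, at 509 CPM with stressed and 604 CPM with unstressed M medium. Of 17 enzymes of amino acid and one-carbon synthesis 13 lay above 0 (median 0.19), with Cth, which makes cysteine, at 1.52-fold (1.35 to 1.71) and Pck2 1.30-fold lower (1.22 to 1.38). Of 19 aminoacyl-tRNA synthetases 14 lay above 0 (median 0.07), and none reached 1.5-fold.

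Inflammatory genes did not differ together. Of 11 cytokines and chemokines compared, 5 lay above 0 and 6 below, with a median of -0.03, and 18 regulators of NF-kB had a median of -0.01. Ptgs2, the prostaglandin synthase COX-2, had 103 CPM with stressed and 39.2 CPM with unstressed M medium. It had 111 CPM with stressed and 47.4 CPM with unstressed GM medium, and 352 CPM in untreated cells. It was 2.62-fold higher (2.39 to 2.88) with stressed M medium, but each media library lay below untreated cells. The neutrophil-attracting chemokine gene Cxcl2 had 13.9 CPM with stressed and 6.06 CPM with unstressed M medium, or 2.29-fold (1.80 to 2.94). It had 28.2 CPM with stressed and 6.89 CPM with unstressed GM medium, and 15.5 CPM in untreated cells. The other neutrophil-attracting chemokine Cxcl1 had 27.7 CPM with stressed and 21.999 CPM with unstressed M medium, and the monocyte-attracting Ccl2 had 81.5 CPM with stressed and 83.0 CPM with unstressed M medium. Csf1, the growth factor of macrophages, had 233 CPM with stressed and 144 CPM with unstressed M medium, a fold of 1.61-fold (1.53 to 1.70). The unstressed M library was the lowest of the 5 for Csf1, since untreated cells had 202 CPM. Cxcl10, an interferon-induced chemokine, was at 0.237 CPM with stressed M medium and 1.55 CPM with unstressed M medium, or 4 and 24 reads.

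Among 16 immediate early genes 10 lay above 0 (median 0.27). Myc had 464 CPM with stressed and 261 CPM with unstressed M medium, or 1.78-fold (1.71 to 1.85), and Ier3, a survival gene, had 144 CPM with stressed and 90.4 CPM with unstressed M medium, or 1.59-fold (1.49 to 1.70). Ier3 was highest in untreated cells, at 266 CPM. The checkpoint ligand gene Cd274, which encodes PD-L1, had 5.85 CPM with stressed and 6.13 CPM with unstressed M medium, a fold of 0.955-fold (0.714 to 1.28), and the median of 11 checkpoint ligands was 0.06. Of 10 EGF-type ligands and growth factors 5 lay above 0, and Hbegf was at 1.46-fold (1.16 to 1.85) beside Areg.

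Glycolysis, hypoxia, cholesterol and fatty acid lists lay modestly above 0. Oxidative phosphorylation did not, with 6 of 20 nuclear genes above 0 (median -0.04). Of 19 glycolysis genes 15 lay above 0 (median 0.22), with the lactate exporter Slc16a3 at 529 CPM with stressed and 323 CPM with unstressed M medium, or 1.64-fold (1.58 to 1.70). Of 18 hypoxia genes 14 lay above 0 (median 0.26), 1 of them, the carbonic anhydrase Car12, at least 2-fold higher with 13.1 CPM with stressed and 5.61 CPM with unstressed M medium. Vegfa, the angiogenic factor, had 264 CPM with stressed and 303 CPM with unstressed M medium and was 1.148-fold lower (1.10 to 1.20). Of 23 cholesterol synthesis genes 20 lay above 0 (median 0.21). Of 14 fatty acid synthesis genes 9 lay above 0 (median 0.16).

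Of 17 cytosolic and mitochondrial heat shock genes 14 lay above 0 (median 0.21), with Hspd1 at 1.47-fold (1.44 to 1.5002). Of 20 NRF2 antioxidant genes 13 lay above 0 (median 0.13), and Hmox1, which degrades haem, had 81.6 CPM with stressed and 47.5 CPM with unstressed M medium, or 1.72-fold (1.57 to 1.88). Of 27 DNA replication genes 22 lay above 0 (median 0.15), and of 24 mitosis genes 9 (median -0.05). Srm, spermidine synthase, was 1.59-fold higher (1.501 to 1.68) and led 12 polyamine and arginine genes (median 0.10). The medians were 0.16 for 10 iron genes, of which Lcn2 was 1, 0.10 for 11 G1 genes, 0.08 for 18 p53 targets, 0.02 for 12 BCL2 family genes, 0.07 for 18 proteases, 0.00 for 7 prostaglandin genes and -0.00 for 11 mitochondrial mRNAs. They were -0.03 for 26 lysosome genes, -0.04 for 16 MAPK phosphatases, -0.04 for 20 nuclear genes of oxidative phosphorylation, -0.05 for 14 genes of TGF-beta and activin and -0.11 for 18 autophagy genes.

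**Figure D4:**
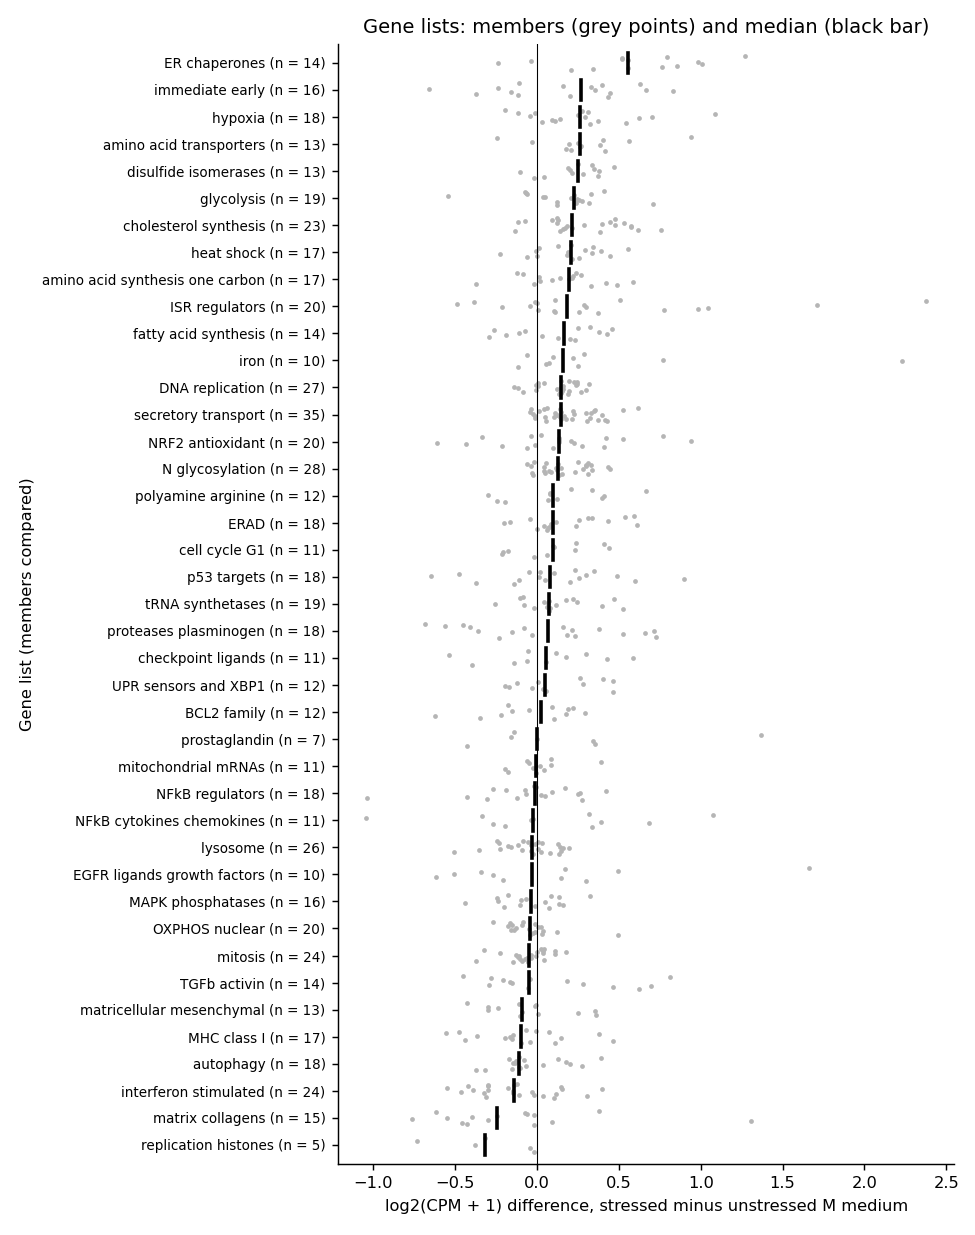
Log2(CPM + 1) difference, stressed minus unstressed M medium (horizontal), of the members compared of 41 gene lists (vertical, ordered by median); grey points are genes and black bars are list medians. ER chaperones have the highest median, 0.56, and collagens, -0.25, and histones, -0.32, have the lowest.

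Lower genes were mostly of low level. Tle2, a Groucho corepressor, was the only abundant one, with 52.8 CPM with stressed and 112 CPM with unstressed M medium. It had 40.8 CPM with stressed and 78.0 CPM with unstressed GM medium, and 83.0 CPM in untreated cells. It was 2.12-fold lower (1.95 to 2.30) with stressed M medium and lowest in the 2 stressed libraries. Coro6, a coronin of the actin cytoskeleton, had 1.18 CPM with stressed and 5.94 CPM with unstressed M medium and was 5.02-fold lower (3.07 to 8.60). Cryl1, an enzyme of the glucuronate pathway, had 2.01 CPM with stressed and 5.9996 CPM with unstressed M medium, or 2.98-fold lower (1.99 to 4.56). Vamp5, a membrane fusion protein, had 2.72 CPM with stressed and 6.45 CPM with unstressed M medium, or 2.37-fold lower (1.66 to 3.44).

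Just under the 2-fold rule, which is set on log2(CPM + 1) and so counts less for low genes than the fold of CPM, H2-DMa, which loads peptides on class II proteins, was 2.33-fold lower (1.62 to 3.39), and it overlaps the far more abundant Brd2 on the opposite strand. Gng7, a G protein gamma subunit, had 10.9 CPM with stressed and 21.4 CPM with unstressed M medium, or 1.96-fold lower (1.63 to 2.36). Cd248, the stromal surface protein endosialin, had 7.45 CPM with stressed and 14.8 CPM with unstressed M medium. It had 6.93 CPM with stressed and 17.2 CPM with unstressed GM medium, and 4.08 CPM in untreated cells. Untreated cells were thus below all 4 media libraries for Cd248. Mr1, which presents vitamin metabolites to T cells, had 20.4 CPM with stressed and 37.8 CPM with unstressed M medium, or 1.85-fold lower (1.62 to 2.12). The kinase gene Pnck, the adaptor gene Sh2d3c, the sugar kinase gene Shpk, the endophilin gene Sh3gl3, Ankrd35 and Zfr2 were each lower by a log2 difference between -0.94 for Pnck and -0.88 for Zfr2.

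Collagens and histones had the lowest medians. Of 15 collagen genes compared 12 lay below 0 (median -0.25), beside -0.50 in the GM pair. Col3a1, a fibrillar collagen, had 939.6 CPM with stressed and 1441 CPM with unstressed M medium. It had 938 CPM with stressed and 1650.2 CPM with unstressed GM medium, and 1095 CPM in untreated cells. It was 1.53-fold lower (1.503 to 1.57) with stressed M medium, and the 2 stressed libraries were the lowest of the 5. Col6a1 was 1.47-fold lower (1.36 to 1.58) and Col6a2 1.75-fold lower (1.49 to 2.05). Col8a1, a short-chain collagen, was instead 2.73-fold higher (2.14 to 3.51) at 15.7 CPM with stressed and 5.74 CPM with unstressed M medium. Its levels were 28.1 CPM with stressed and 16.4 CPM with unstressed GM medium, and 9.68 CPM in untreated cells. The unstressed M library was thus the lowest of the 5 for Col8a1. Fibronectin, Fn1, of 13 matricellular and mesenchymal genes (median -0.09), had 386 CPM with stressed and 519 CPM with unstressed M medium, or 1.34-fold lower (1.30 to 1.39). All 5 histone genes compared lay below 0 (median -0.32), 1 of them at 1.5-fold, and 11 of the 16 listed were under the filter, which limits what the list shows.

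Interferon-stimulated genes lay below 0 in 17 of 24 cases (median -0.14) and MHC class I genes in 12 of 17 (median -0.10), with none at 1.5-fold on the log2(CPM + 1) scale in either list. Isg15 had 2.19 CPM with stressed and 3.68 CPM with unstressed M medium, and H2-T23, a non-classical class I gene, had 12.4 CPM with stressed and 18.8 CPM with unstressed M medium, or 1.51-fold lower (1.26 to 1.81). H2-K1 and H2-D1, the classical class I genes, had log2 differences of -0.07 and -0.00. In the GM pair the medians were 0.07 and 0.02, with 15 of 24 and 11 of 17 members above 0.

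The GM pair, stressed against unstressed GM medium, shares no library with the M pair. Its libraries do count toward the mean CPM of the filter. On the other 3 libraries alone, 45 of the 46 higher genes also pass, but those 3 include stressed GM medium. A gene can pass through that library, as Otog did at 6.05 CPM, beside 0.130 CPM with unstressed GM medium and 0.264 CPM in untreated cells. The counts of agreement below are therefore not free of the filter. In the GM pair, stressed medium gave 44 genes at least 2-fold higher (0.393%) and 14 lower by that rule (0.125%). All 46 genes at least 2-fold higher with stressed M medium lay above 0 in the GM pair, and 27 were at least 2-fold higher there, which is 58.7% of the 46 and 61.4% of the 44. Of the 16 genes at least 2-fold lower with stressed M medium, 10 lay below 0 in the GM pair and none was at least 2-fold lower there. Among the genes at 1.5-fold, 202 of 217 higher ones lay above 0 and 268 of 312 lower ones below 0 in the GM pair, where over all genes 5510 of 11190 lay above 0. Across genes the 2 sets of differences were related by a Pearson r of 0.62, with a Spearman rho of 0.57. Over the 7643 genes with a mean of at least 20 CPM in the 2 M libraries they were 0.74 and 0.67. These values describe genes of 4 single libraries from 1 cell line.

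The sizes of the differences were close in both pairs for some of the leading genes and not for others. Car6 was 23.3-fold (15.5 to 36.6) higher in the GM pair, Atf3 5.22-fold (4.26 to 6.43), Ppp1r15a 2.66-fold (2.42 to 2.92) and Hspa5 2.21-fold (2.17 to 2.25). Avil was 20.95-fold (16.5 to 27.0) higher there, beside 10.4-fold (8.83 to 12.4) in the M pair, since it was lower with unstressed GM medium than with unstressed M medium. Lcn2 was 15.02-fold (10.1 to 23.3) higher there, beside 6.97-fold (4.58 to 11.0) in the M pair. Sptb was 3.76-fold (2.73 to 5.26) higher there, beside 10.2-fold (6.68 to 16.1) in the M pair, and Cd74 6.70-fold (4.35 to 10.8) higher, beside 16.7-fold (7.41 to 46.4).

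Of the 11190 genes, 14 had a log2 difference larger by at least 1 in the M pair than in the GM pair and 35 smaller by at least 1. Lcn2, described above, belongs to the 35, with a difference between pairs of -1.07. The 8 others printed in this paragraph were chosen after their values were seen. Cxcl1 had 64.6 CPM with stressed and 21.1 CPM with unstressed GM medium, and 54.8 CPM in untreated cells, beside 27.7 CPM with stressed and 21.999 CPM with unstressed M medium. Cxcl5, a related chemokine, had 6.99 CPM with stressed and 1.49 CPM with unstressed GM medium, beside 0.710 CPM with stressed and 1.16 CPM with unstressed M medium. The matrix protease Mmp13 had 27.2 CPM with stressed and 10.1 CPM with unstressed GM medium, beside 6.03 CPM with stressed and 5.29 CPM with unstressed M medium. For Mmp3, another matrix protease, the levels were 43.9 CPM with stressed and 23.7 CPM with unstressed GM medium, beside 11.8 CPM with stressed and 16.5 CPM with unstressed M medium. These chemokines and proteases were thus higher with stressed medium in the GM pair, while in the M pair Cxcl1 had the highest fold of the 4, 1.26-fold (1.09 to 1.45). On the other side were Sptb, the matrix proteoglycan Ogn, at 29.6 CPM with stressed and 23.8 CPM with unstressed M medium beside 14.2 CPM with stressed and 26.1 CPM with unstressed GM medium, and the exon-junction gene Magohb, at 9.28 CPM with stressed and 4.97 CPM with unstressed M medium beside 4.03 CPM with stressed and 6.89 CPM with unstressed GM medium. Sh2d3c was lower in the M pair (-0.90) and not in the GM pair (0.26). The difference between pairs has no replicate check.

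**Figure D5:**
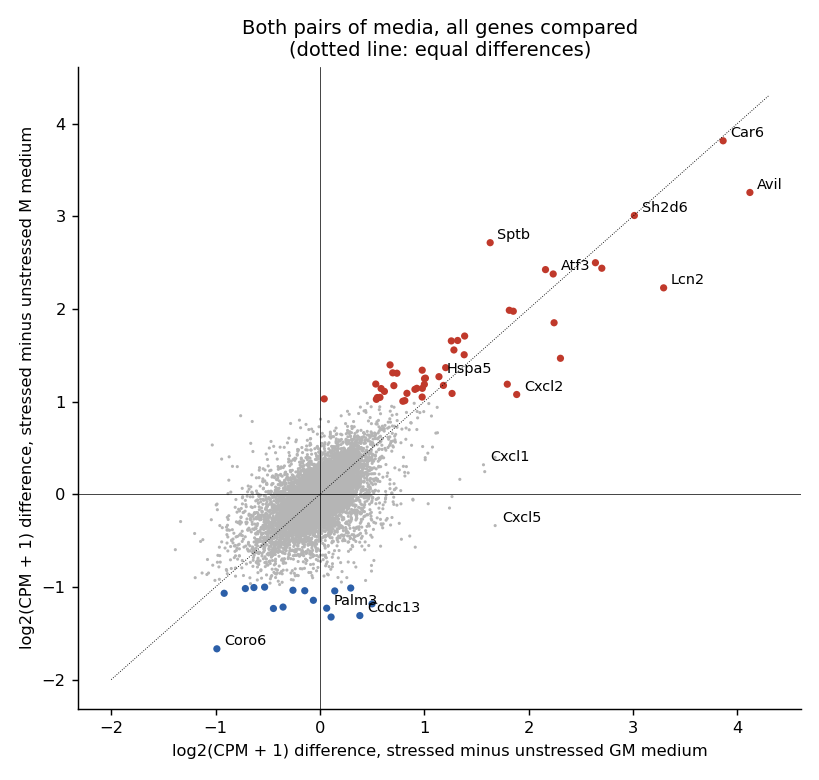
Log2(CPM + 1) difference, stressed minus unstressed M medium (vertical), against stressed minus unstressed GM medium (horizontal), for 11190 genes; red and blue mark the 46 genes at least 2-fold higher and the 16 at least 2-fold lower in the M pair, and the dotted line marks equal differences. All red points lie above 0 in the GM pair, while Cxcl1 and Cxcl5 lie far to its right with small M differences.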

How the data were processed

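RNA was extracted with Trizol and sequenced by Illumina protocols, per the labels. The authors deposited whole-number read counts per gene for 5 LLC and, separately, 4 BMDM libraries. Per the file headers, FPKM columns were also deposited, and they matched those recomputed from counts, lengths and totals within 5.0e-07 for LLC. The submitters' processing notes list cutadapt 1.15, TopHat2 2.1.0 and HISAT2. The genome build, the counting tool and its use of strand are not given in the sources used here. Among 21894 gene IDs shared with GENCODE M21 (GRCm38), 99.1% had equal coordinates.

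CPM was computed from the counts with TMM effective library sizes (edgeR 4.0.16, R 4.3.3), per table. Genes with a mean of at least 1 CPM were compared as log2(CPM + 1), and 2-fold means a log2 difference of at least 1. With 1 library per group no p-value was computed. Fold intervals are exact Clopper-Pearson intervals at 95%. The 41 gene lists and 7 marker lists, like the comparison itself, were chosen with earlier results of these data known. Named genes were the 15 largest differences in each direction among genes reaching 5 CPM in at least 1 M library, up to 4 members of each list, and 16 genes in any case; further list members and others are printed as examples. Some genes that this rule selects are not reported here. Alternatives were total-count and DESeq2 1.42.0 scaling, other filters and pseudocounts, thinned counts and deposited FPKM. The calculation was tested on simulated data.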

Additional observations from a re-analysis of the deposited data

Results flagged for a closer look

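Among the 199 genes that the naming rule selects, 2 went opposite ways in the 2 pairs with both counting intervals off 1. In both genes the stressed library was lower in the M pair and higher in the GM pair. Over all 11190 genes compared, 57 lay this way and 69 the opposite way. The 2 genes are therefore examples and no result about the named genes. Irf9, a subunit of the interferon-activated factor ISGF3, had 6.21 CPM with stressed and 8.64 CPM with unstressed M medium, and 8.75 CPM with stressed and 6.17 CPM with unstressed GM medium. It overlaps Rnf31 on the same strand, at 18.2 CPM with stressed and 17.1 CPM with unstressed M medium. Its log2 difference in the M pair minus that in the GM pair was -0.86. H2-Q4, a non-classical MHC class I gene whose reads may be shared with its close relatives, had 14.1 CPM with stressed and 19.999 CPM with unstressed M medium, and 17.7 CPM with stressed and 14.3 CPM with unstressed GM medium, a difference between pairs of -0.77. Each pair is 2 single libraries, so the difference between pairs was not tested.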

How the results depend on the processing

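The counts of 46 genes at least 2-fold higher and 16 lower depended on the treatment of low genes. They were 28 and 1 with a filter of 5 CPM, 57 and 46 with a pseudocount of 0.5, 16 and 1 with a pseudocount of 5, and 21 and 3 with deposited FPKM. The share of higher genes among those called was 74.2% as reported, 96.6%, 55.3%, 94.1% and 87.5% under these 4 in the same order. At 1.5-fold they were 217 and 312. Scaling by total counts gave 43 and 17 with a median over all genes of -0.04, DESeq2 size factors gave 46 and 15, no filter gave 55 and 16, and thinning to equal totals gave 46 and 14. No gene at 2-fold changed sign under these settings. Values near 0 did: with total-count scaling the log2 differences of Chac1 and Eif2ak3 were -0.04 and -0.03, and the medians of the prostaglandin and BCL2 lists -0.04 and -0.01, and deposited FPKM turned the same 4. Thinning turned Cd274 (0.01) and H2-D1 (0.00). The median was 0.01 for cytokines and chemokines and 0.01 for mitochondrial mRNAs with no filter, and -0.03 for proteases at 5 CPM. For EGF-type ligands, at -0.03 as reported, it was 0.12 with no filter and 0.24 at 5 CPM. No paired analysis was possible because each group holds 1 library and the labels give no replicate numbers. For the same reason no library could be left out. Depth limits the lower genes most, since 3 reads are 0.18 CPM with stressed and 0.19 CPM with unstressed M medium.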

Other observations

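Gene Ontology terms were added after the data were seen. Of 60 genes compared of the term response to ER stress, 42 lay above 0 with a median log2 difference of 0.12 with stressed over unstressed M medium, and 3 were at least 2-fold higher. Of 75 genes of the ER lumen 42 lay above 0, with a median of 0.03. Of 30 collagen trimer genes 24 lay below 0 in each pair of media, with medians of -0.20 in the M pair and -0.31 in the GM pair. Of 134 inflammatory response genes 59 lay above 0, with a median of -0.03.

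The following 5 genes belong to no list above, were past the 2-fold rule on the higher side and were chosen after their values were seen. Tmem97, a sterol-regulated ER membrane protein known as the sigma-2 receptor, had 79.8 CPM with stressed and 38.7 CPM with unstressed M medium, or 2.06-fold (1.87 to 2.27). Stard5, a sterol-binding protein of the START family, had 9.76 CPM with stressed and 3.87 CPM with unstressed M medium, or 2.52-fold (1.87 to 3.45). Acot2, a mitochondrial acyl-CoA thioesterase, had 38.6 CPM with stressed and 16.97 CPM with unstressed M medium, or 2.28-fold (1.97 to 2.64). Fkbp11, a prolyl isomerase of the secretory pathway, had 20.5 CPM with stressed and 7.48 CPM with unstressed M medium, or 2.73-fold (2.21 to 3.40). Inhbe, which encodes an activin subunit, had 6.62 CPM with stressed and 2.45 CPM with unstressed M medium, or 2.70-fold (1.85 to 4.01). All 5 were also higher with stressed than with unstressed GM medium, by log2 differences between 0.54 for Tmem97 and 0.98 for Stard5. Reads of Dnmt3l, a cofactor of DNA methylation, were at 9.94 CPM with stressed and 3.81 CPM with unstressed M medium, next to the overlapping opposite-strand gene Aire at 1.72 CPM with stressed and 2.19 CPM with unstressed M medium.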
